A study of Mus musculus with 12 samples.

Results

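The genes described here are 8 secreted antagonists of WNT signaling, *Frzb*, *Sfrp1*, *Sfrp2*, *Sfrp5*, *Wif1*, *Dkk1*, *Dkk2* and *Dkk3*, out of 49315 genes counted in endothelial cells of the embryonic mouse forebrain. They are a list of secreted frizzled-related proteins, Dickkopf proteins and WNT inhibitory factor 1, defined by name with no rule on expression. Its choice was made with earlier results of these data known. The list does not hold the whole families, since *Sfrp4*, *Dkk4* and *Dkkl1* were counted among the other antagonists and were removed by the filter on low counts. The 12 RNA-seq libraries came from 4 wild-type, 4 *Gpr124ΔC/ΔC* and 4 *Gpr124-/-* embryos at E15.5, with 1 embryo per library. Wild-type embryos carry an intact *Gpr124*. In *Gpr124ΔC/ΔC* embryos a V5 tag and a stop codon, placed by CRISPR/Cas9 in frame behind the last transmembrane segment, remove the intracellular domain of GPR124. *Gpr124-/-* embryos are homozygous for a lacZ null allele. Both alleles are global, so they affect every cell of the embryo and not the endothelium alone, and homozygotes came from intercrosses of heterozygous parents. The cells were sorted as positive for CD31 and negative for CD140b, CD45 and 7-AAD.

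WNT ligands signal through Frizzled receptors and the coreceptors LRP5 and LRP6 to stabilize β-catenin, which acts with TCF/LEF factors on target genes. In brain endothelium GPR124 and RECK form a coreceptor complex for WNT7A and WNT7B, and this signal drives brain angiogenesis and formation of the blood-brain barrier. Secreted antagonists act outside the cell. Frizzled-related proteins and WIF1 bind the WNT ligands themselves, whereas DKK1 and DKK2 bind LRP5 and LRP6. Several antagonists are themselves target genes of the pathway in other tissues and form negative feedback loops.

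*Frzb* fell to 3.09% of its wild-type mean in *Gpr124-/-* and to 6.37% in *Gpr124ΔC/ΔC*, and *Dkk3* fell to 18.4% and 29.0%. *Wif1* was at 8.25% of its wild-type mean in *Gpr124-/-*, where it passed the test of edgeR and was lost in 1 of 20 alternative fits. In *Gpr124ΔC/ΔC* it was at 33.3%, which narrowly missed the threshold (adjusted p = 0.0704, edgeR) and passed in 4 of 20 alternative fits. *Dkk2*, *Sfrp1* and *Sfrp2* did not pass the test of edgeR on all 12 libraries in any comparison, and *Dkk1* and *Sfrp5* had at most 5 reads in any library. These percentages are ratios of mean TPM, a level that is scaled by gene length and by the library's total, so that genes can be compared with each other.

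On GRCm38, *Frzb* (ENSMUSG00000027004) lies on the minus strand of chromosome 2 from 80411970 to 80447625. *Wif1* (ENSMUSG00000020218) is on the plus strand of chromosome 10 from 121033960 to 121100650, and *Dkk3* (ENSMUSG00000030772) is on the minus strand of chromosome 7 from 112116017 to 112159057. *Dkk2* (ENSMUSG00000028031) and *Sfrp2* (ENSMUSG00000027996) are both on the plus strand of chromosome 3, from 132085292 to 132180304 and from 83766321 to 83774316. *Dkk1* (ENSMUSG00000024868) and *Sfrp5* (ENSMUSG00000018822) are both on the minus strand of chromosome 19, from 30545863 to 30549665 and from 42197971 to 42202252. *Sfrp1* (ENSMUSG00000031548) is on the plus strand of chromosome 8 from 23411502 to 23449632. That is 3.64 Mb from *Adgra2*, the symbol under which the mutated gene *Gpr124* is listed. All 8 genes are protein coding, and reads were counted over their exons, which add up to between 1900 bases for *Sfrp5* and 4372 for *Sfrp1*. Only *Sfrp2* shares exonic bases with another counted gene, *Gm26771*. Whether counting used the strand is not given in the sources used here, so reads of these 2 genes cannot be told apart.

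RefSeq promoter windows on GRCm38.p6, with 250 bases before and 50 after the transcription start, were at hand for 6 of the 8 members, all except *Dkk3* and *Sfrp1*. They were searched on both strands for CTTTGA and for CTTTGT, the core letters that TCF/LEF factors bind. The 2 motifs share their first 5 letters but cannot mark the same site. Of all 32851 windows, 16.0% hold CTTTGA, 18.7% hold CTTTGT and 31.2% hold either. *Frzb* had 1 CTTTGA, *Dkk1* had 2 CTTTGA and 1 CTTTGT, *Dkk2* had 1 CTTTGT, and *Wif1*, *Sfrp2* and *Sfrp5* had neither. A match in so short a motif is a description of the letters and not a binding site. The stretches of *Frzb* and *Dkk1* are shown because of their matches, and the longer ones because *Wif1* was called lower in *Gpr124-/-* and *Dkk2* was not. Capitals mark the match as read along the gene's strand, where TCAAAG is CTTTGA of the opposite strand.
Frzb, chr2:80447474-80447503, minus strand: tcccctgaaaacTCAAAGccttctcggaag
Dkk1, chr19:30549653-30549682, minus strand: gaggggagagtgTCAAAGtcctccctgctt
Dkk1, chr19:30549596-30549625, minus strand: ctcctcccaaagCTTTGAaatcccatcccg
Dkk1, chr19:30549577-30549606, minus strand: atcccatcccggCTTTGTtgtcttccctga
Wif1, chr10:121033754-121033959, plus strand: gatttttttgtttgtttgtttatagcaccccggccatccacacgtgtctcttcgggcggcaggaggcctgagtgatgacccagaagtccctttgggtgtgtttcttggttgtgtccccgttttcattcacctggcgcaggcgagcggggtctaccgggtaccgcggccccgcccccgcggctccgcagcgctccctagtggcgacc
Dkk2, chr3:132085042-132085291, plus strand: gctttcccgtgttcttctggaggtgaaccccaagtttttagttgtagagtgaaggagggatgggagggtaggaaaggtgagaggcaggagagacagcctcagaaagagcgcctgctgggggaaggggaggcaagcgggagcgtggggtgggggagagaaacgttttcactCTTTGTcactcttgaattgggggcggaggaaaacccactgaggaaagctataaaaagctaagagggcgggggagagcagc

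The *Wif1* and *Dkk2* stretches hold the bases before the start of the gene in both RefSeq and the count files. The RefSeq starts of *Frzb* and *Dkk1* lie 229 and 169 bases inside the gene of the count files, so their matches lie within that longer transcript or at its start. The 6 member windows were 57.7% to 66.0% GC, above the median of 52.7% over all windows. They held 9 CpG dinucleotides in *Dkk1*, 11 in *Dkk2*, 15 in *Sfrp5*, 20 in *Frzb*, 22 in *Sfrp2* and 25 in *Wif1*, against a median of 7.

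Library totals of reads on genes ran from 13877572 to 22551163, and *Gpr124ΔC/ΔC* held the lowest. *Adgra2* was at 28.3 to 51.1 TPM in wild type, 34.1 to 63.4 in *Gpr124ΔC/ΔC* and 4.03 to 6.29 in *Gpr124-/-*. The summed TPM of 10 endothelial markers was 5550 to 6910 in wild type, 4930 to 7440 in *Gpr124ΔC/ΔC* and 5910 to 7030 in *Gpr124-/-*, where *Emcn* was called higher (means of 180 and 444 TPM). Called means an adjusted p below 0.05 and a log2 fold change past 1 in either direction, by edgeR unless another tool is named. *Pecam1* (means of 491, 579 and 731 TPM) and *Cdh5* (306, 400 and 529 TPM) were not called, but their *Gpr124-/-* ranges lay above those of wild type, while *Tek* was at 616, 666 and 384 TPM. In all libraries *Ptprc*, which encodes CD45, stayed at or below 0.0822 TPM and *Pdgfrb*, which encodes CD140b, at or below 3.96 TPM. Markers of other cells also moved between genotypes. The summed TPM of 9 erythroid and platelet markers was 7010 to 11400 in wild type, 5600 to 9910 in *Gpr124ΔC/ΔC* and 18400 to 53700 in *Gpr124-/-*. There 8 of the 9 were called higher against wild type. The sum of 7 choroid plexus markers, of which *Ttr* was at 29.0 to 1550 TPM and *Kl* at or below 0.13 TPM, was 551 to 1220, 407 to 1750 and 90.4 to 332 in the same order. *Enpp2*, which encodes autotaxin, was the only one of them called against wild type (edgeR), lower in both mutants, at means of 433, 226 and 63.9 TPM. For 9 microglial and macrophage markers it was 6.49 to 11.8, 13.0 to 14.1 and 27.5 to 40.4, mostly from *P2ry12* (means of 4.41, 7.56 and 26.4 TPM), while *Mrc1* was at means of 1.34, 1.81 and 0.52 TPM. The sum of 10 mural markers was 31 to 65.3, 17.0 to 40.2 and 35.5 to 51.4, and its members moved in both directions. In *Gpr124-/-* against wild type *Rgs5* was called lower (means of 17.4 and 6.56 TPM) and *Abcc9* higher (1.79 and 11.6 TPM), and in *Gpr124ΔC/ΔC* *Higd1b* was called lower (14.4 and 5.22 TPM). The sum of 10 neuronal markers was 53.5 to 135, 86.4 to 152 and 111 to 145, with *Stmn2* called higher in *Gpr124-/-* (means of 14.2 and 34.4 TPM). That of 10 progenitor and glial markers was 130 to 149, 117 to 123 and 141 to 167, mostly from *Nes* (means of 85.6, 86.3 and 111 TPM). Of the 9 of them that were tested, *Slc1a3* (means of 9.16, 2.5 and 2.12 TPM) and *Hopx* (11.2, 3.09 and 1.07 TPM) were called lower in both mutants against wild type. The other 7 were not called in either, with *Fabp7* at means of 24.2, 22.3 and 28.1 TPM and *Sox2* at 1.85, 1.35 and 2.01 TPM. The wild-type embryo KE8 stood apart with 82.8 TPM over 10 fibroblast and meningeal markers, against 10.1 to 19.7 in the other 11 libraries, and of that list *Pdgfra* was called lower in *Gpr124-/-* (means of 0.697 and 0.12 TPM). The part of these cells in the values below was not tested, and in sorted bulk cells fewer expressing cells and less RNA per cell cannot be told apart.

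In wild-type endothelium *Frzb*, *Dkk3* and *Dkk2* were the most abundant members. Their mean TPM was 17.6 ± 4.27, 15.4 ± 2.82 and 13.0 ± 1.15 (SD, n = 4), above 57.6%, 54.9% and 51.4% of the 16637 genes that passed the filter on low counts. The ranges of these 3 genes overlapped, and *Frzb* was above *Dkk3* in 3 of 4 libraries. *Dkk2* lay above *Wif1* in all 4 libraries with no overlap, at 3.27 ± 0.872 TPM (SD, n = 4) for *Wif1*. *Sfrp1* at 2.14 ± 1.22 TPM and *Sfrp2* at 0.759 ± 0.611 TPM (SD, n = 4) overlapped with their neighbours above. In both mutants *Dkk2* stood first without overlap with the next gene, which was *Dkk3* in *Gpr124ΔC/ΔC* and *Sfrp1* in *Gpr124-/-*. *Frzb*, first in wild type, stood behind *Dkk2*, *Dkk3* and *Sfrp1* in *Gpr124ΔC/ΔC* and also behind *Sfrp2* in *Gpr124-/-*, where its range overlapped those of the genes directly above and below it.

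**Figure D1:**
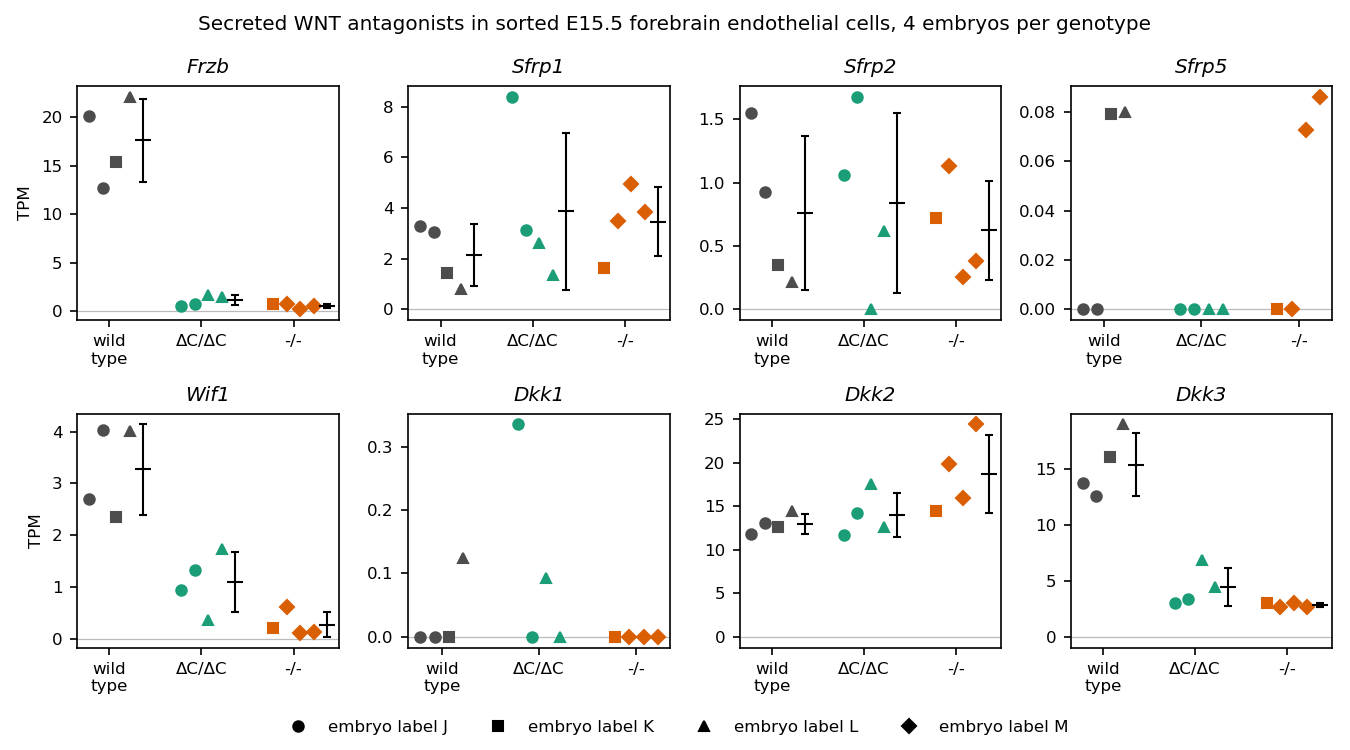
TPM of each of the 8 antagonists (vertical axes, linear and different for each gene) in every library by genotype; the marker shape gives the first letter of the embryo label, and the black bar gives the mean ± SD of 4 embryos except for *Sfrp5* and *Dkk1*, which had almost no reads. The mutant points of *Frzb* and *Dkk3* sit below all 4 wild-type points, whereas those of *Sfrp1* and *Sfrp2* are spread over the wild-type range and beyond.

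*Frzb* encodes a frizzled-related protein, also called sFRP3, that binds WNT ligands outside the cell. In wild type it was at 20.1, 12.7, 15.4 and 22.1 TPM in embryos JE1, JE6, KE8 and LE6. In *Gpr124ΔC/ΔC* it was at 0.552, 0.791, 1.66 and 1.48 TPM in JE3, JE4, LE2 and LE5, and in *Gpr124-/-* at 0.695, 0.753, 0.213 and 0.506 TPM in KE4, ME1, ME4 and ME5. Each mutant library was far below each wild-type library, and the 2 mutants overlapped. In reads, wild-type libraries had 270 to 506, *Gpr124ΔC/ΔC* 11 to 25 and *Gpr124-/-* 5 to 13, so that the mutant values carry a large counting error. The log2 fold change was −5.07 ± 0.37 (SE) in *Gpr124-/-* (adjusted p = 1.28e-06, quasi-likelihood test of edgeR, Benjamini-Hochberg adjustment over all tested genes), a 33.5-fold fall with a 95% interval of 19.3 to 58.3. In *Gpr124ΔC/ΔC* it was −4.07 ± 0.34 (SE) (adjusted p = 3.33e-05, edgeR), a 16.8-fold fall with an interval of 10 to 28.2. Of all 16637 log2 fold changes, that of *Frzb* was the 18th lowest in *Gpr124-/-* and the 4th lowest in *Gpr124ΔC/ΔC*. Between the mutants the log2 fold change was −1.0 ± 0.39 (SE), lower in *Gpr124-/-*, and did not pass (adjusted p = 0.146, edgeR; 95% interval −1.84 to −0.15).

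The first letter of the embryo labels, J, K, L or M, is not explained in the sources used here. In *Gpr124ΔC/ΔC* both L embryos, at 1.66 and 1.48 TPM of *Frzb*, were above both J embryos, at 0.552 and 0.791 TPM. How many of all tested genes part these few embryos by letter was not counted. No effect of the letter is therefore read from such an order, here or for the members below. Within letter J the wild-type mean of *Frzb* was 24.4 times the *Gpr124ΔC/ΔC* mean, with 2 embryos each, and within letter L it was 14.1 times, with 1 wild-type embryo against 2. Within letter K, 1 wild-type embryo had 22.1 times the TPM of 1 *Gpr124-/-* embryo. The fall was thus present within each letter that holds 2 genotypes, and without KE8, the embryo with high fibroblast markers, the log2 fold changes were −5.13 and −4.14. Between the mutants, a fit with this letter as a term gave −0.2 for *Frzb* in place of −1.0. Letter M holds no other genotype, so in that fit *Gpr124-/-* is compared through the K embryos KE4 and KE8 alone.

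*Dkk3* encodes a divergent Dickkopf protein, whose effect on WNT signaling depends on the cell. It was at 13.8, 12.6, 16.1 and 19.0 TPM in the wild-type embryos JE1, JE6, KE8 and LE6. In *Gpr124ΔC/ΔC* it was at 3.05, 3.43, 6.85 and 4.49 TPM in JE3, JE4, LE2 and LE5. In *Gpr124-/-* it was at 3.04, 2.68, 3.0 and 2.63 TPM in KE4, ME1, ME4 and ME5. The 3 genotypes formed 3 ranges that did not overlap, although the lowest *Gpr124ΔC/ΔC* value, in JE3, was almost level with the highest *Gpr124-/-* value, in KE4. The *Gpr124-/-* libraries were the most uniform for this gene, with a coefficient of variation of 7.44%, against 38.4% in *Gpr124ΔC/ΔC* and 18.3% in wild type.

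The log2 fold change of *Dkk3* was −2.47 ± 0.20 (SE) in *Gpr124-/-* (adjusted p = 2.87e-06, edgeR) and −1.88 ± 0.20 (SE) in *Gpr124ΔC/ΔC* (adjusted p = 0.000165, edgeR). These are falls of 5.55-fold and 3.69-fold. The *Gpr124-/-* libraries were lower than *Gpr124ΔC/ΔC* by a log2 fold change of −0.59 ± 0.20 (SE), which did not pass (adjusted p = 0.0949, edgeR; 95% interval −1.03 to −0.15). As for *Frzb*, the L embryos of *Gpr124ΔC/ΔC* were above the J embryos, and so was the L embryo of wild type. Within letter J the wild-type mean TPM was 4.08 times the *Gpr124ΔC/ΔC* mean, within letter L 3.35 times, and within letter K the wild-type embryo had 5.31 times the level of the *Gpr124-/-* embryo.

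*Wif1* encodes WNT inhibitory factor 1, which binds WNT ligands through its WIF domain. In wild type it was at 2.70, 4.03, 2.36 and 4.01 TPM in JE1, JE6, KE8 and LE6, and in *Gpr124ΔC/ΔC* at 0.938, 1.32, 0.368 and 1.73 TPM in JE3, JE4, LE2 and LE5. In *Gpr124-/-* it was at 0.214, 0.618, 0.114 and 0.135 TPM in KE4, ME1, ME4 and ME5. Neither mutant overlapped with wild type, while LE2 fell inside the *Gpr124-/-* range and ME1 inside that of *Gpr124ΔC/ΔC*. These levels rest on few reads, with 38 to 64 per library in wild type, 4 to 22 in *Gpr124ΔC/ΔC* and 2 to 8 in *Gpr124-/-*.

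For *Wif1* the log2 fold change in *Gpr124-/-* was −3.66 ± 0.54 (SE) (adjusted p = 0.000369, edgeR; 95% interval −4.84 to −2.49), and without ME1, the highest *Gpr124-/-* library for this gene, it was −4.43. In *Gpr124ΔC/ΔC* it was −1.66 ± 0.46 (SE), which missed the threshold (adjusted p = 0.0704, edgeR; 95% interval −2.65 to −0.66). It passed with DESeq2 (adjusted p = 0.0101) and in the fit with the label letter (−1.79, adjusted p = 0.0436, edgeR). This gene was the only member to pass between the mutants, with −2.01 ± 0.57 (SE) (adjusted p = 0.0476, edgeR; 95% interval −3.25 to −0.76). That call was close to the threshold, and it was lost in 15 of the 19 alternatives that gave a value, over which the adjusted p ran from 0.00787 to 0.853. It was kept without LE2 and without ME1 (log2 fold change −2.77), and lost without each of the other 10 libraries. The call in *Gpr124-/-* against wild type was lost in the fit that adds the label letter (adjusted p = 0.105 at a log2 fold change of −3.46, edgeR). The wild-type mean was 2.98 times the *Gpr124ΔC/ΔC* mean within letter J and 3.82 times within letter L, and the wild-type K embryo had 11 times the TPM of the *Gpr124-/-* K embryo. No letter holds embryos of both mutants, and letter M holds 3 of the 4 *Gpr124-/-* embryos and no other genotype.

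*Dkk2*, an antagonist that binds LRP5 and LRP6, did not pass the test on all 12 libraries in either mutant. It was at 11.8 to 14.5 TPM in wild type, and at 11.7, 14.2, 17.5 and 12.6 TPM in the *Gpr124ΔC/ΔC* embryos JE3, JE4, LE2 and LE5. In *Gpr124-/-* it was at 14.5, 19.9, 15.9 and 24.4 TPM in KE4, ME1, ME4 and ME5. The 3 M embryos of *Gpr124-/-* were above every wild-type embryo, and the K embryo was at the top of the wild-type range. The log2 fold change in *Gpr124ΔC/ΔC* was 0.02 ± 0.18 (SE) (adjusted p = 0.991, edgeR), with a 95% interval of −0.38 to 0.41, and its sign changed with the processing. In *Gpr124-/-* it was 0.49 ± 0.18 (SE) against wild type (adjusted p = 0.0781, edgeR; 95% interval 0.10 to 0.88) and 0.47 ± 0.18 (SE) against *Gpr124ΔC/ΔC* (adjusted p = 0.133, edgeR). Without KE4 these were 0.61 (adjusted p = 0.0267, edgeR) and 0.59 (adjusted p = 0.0473, edgeR), still short of the fold threshold. Within letter K, where 1 embryo of each genotype can be compared, the log2 ratio of *Gpr124-/-* to wild-type TPM was 0.20. The interval of the log2 fold change in *Gpr124ΔC/ΔC* lay far from the −4.07 of *Frzb* in the same libraries.

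**Figure D2:**
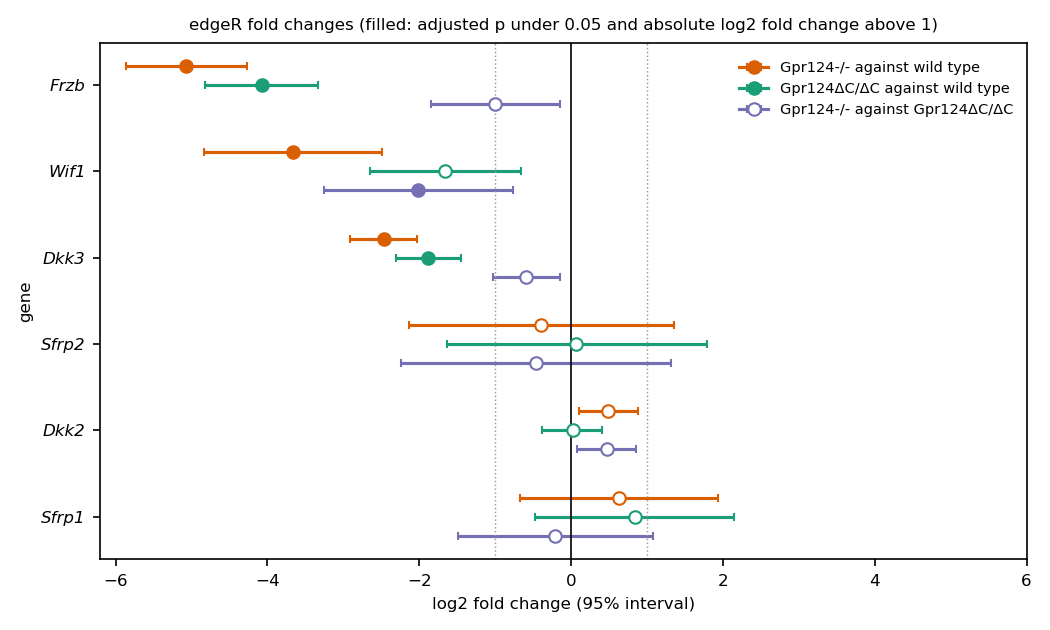
Log2 fold change (horizontal axis) of the 6 antagonists that passed the filter on low counts, in 3 comparisons; bars are 95% intervals from edgeR, filled points passed both thresholds (adjusted p of 0.05, log2 fold change of 1 in either direction), and dotted lines mark −1 and 1. The intervals of *Frzb* and *Dkk3* against wild type lie wholly below −1 in both mutants, and those of *Sfrp1* and *Sfrp2* cross 0 in every comparison.

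*Sfrp1* and *Sfrp2* encode frizzled-related proteins that neural progenitors and mesenchymal cells are known to express. *Sfrp1* was at 3.29, 3.04, 1.41 and 0.80 TPM in the wild-type embryos JE1, JE6, KE8 and LE6, and at 8.40, 3.12, 2.61 and 1.35 TPM in the *Gpr124ΔC/ΔC* embryos JE3, JE4, LE2 and LE5. In *Gpr124-/-* it was at 1.62, 3.47, 4.93 and 3.82 TPM in KE4, ME1, ME4 and ME5. All 3 ranges overlapped, and in wild type and *Gpr124ΔC/ΔC* the J embryos were above the others. JE3, the highest library for *Sfrp1*, was also the highest for *Adgra2*, at 63.4 TPM, and for the summed choroid plexus markers. The log2 fold change was 0.63 ± 0.60 (SE) in *Gpr124-/-* (adjusted p = 0.535, edgeR; 95% interval −0.67 to 1.94) and 0.84 ± 0.60 (SE) in *Gpr124ΔC/ΔC* (adjusted p = 0.641, edgeR; 95% interval −0.47 to 2.15). Without JE3 the latter was −0.03. These intervals span both falls and rises, so that a difference of moderate size was not detectable with these embryos.

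*Sfrp2* was at 0.212 to 1.55 TPM in wild type, 0 to 1.68 in *Gpr124ΔC/ΔC* and 0.257 to 1.13 in *Gpr124-/-*, with at most 26 reads in any library. Its wild-type J embryos, at 1.55 and 0.923 TPM, were above the K and L embryos, at 0.350 and 0.212 TPM, and its *Gpr124ΔC/ΔC* J embryos were likewise above the L embryos. The log2 fold change was −0.39 ± 0.81 (SE) in *Gpr124-/-* (adjusted p = 0.799, edgeR) and 0.07 ± 0.79 (SE) in *Gpr124ΔC/ΔC* (adjusted p = 0.991, edgeR). Its sign changed in both comparisons when single libraries were left out.

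*Dkk1*, an inhibitor that binds LRP6 and is a classic feedback gene of the pathway, was almost unread in this endothelium. Wild-type libraries held 0, 0, 0 and 2 reads, *Gpr124ΔC/ΔC* libraries 5, 0, 1 and 0, and *Gpr124-/-* libraries none. The 0 reads of 72183546 in *Gpr124-/-* allow a level of up to 0.0416 CPM, the reads of a gene scaled to a common library size (3 counts over the 4 libraries, counting error only). *Sfrp5* had 1 read in KE8, LE6, ME4 and ME5 and none in the other 8 libraries, and its 0 of 59016359 reads in *Gpr124ΔC/ΔC* allow up to 0.0508 CPM. Both were removed by the filter on low counts and were compared by an exact two-sided permutation test on mean TPM. With so many libraries at 0, the test could not reach an exact p of 0.05 in 5 of these 6 comparisons, whatever the order of the embryos, so nothing is read from them. In the one that could, *Sfrp5* in *Gpr124-/-* against wild type, the exact permutation p was 1.0 over 70 orders, of which the smallest possible p is 0.0286.

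Of the 8 members, 6 passed the filter. With an adjusted p below 0.05 and a log2 fold change past 1 as the rule for a call, 3 were lower in *Gpr124-/-* against wild type by edgeR, DESeq2 and limma on log2(TPM + 1), where edgeR called 4.21% of all tested genes lower and 5.67% higher. In *Gpr124ΔC/ΔC* edgeR called 2 lower, against 1.03% of all genes lower and 0.89% higher, and DESeq2 and limma each called 3 lower. Between the mutants edgeR called 1 lower in *Gpr124-/-*, against 1.94% of all genes lower and 2.67% higher, DESeq2 called 1 and limma none. No member was called higher by edgeR, DESeq2 or limma, and the only one above 0 at an unadjusted p under 0.05 (edgeR) was *Dkk2*, in *Gpr124-/-* against wild type and against *Gpr124ΔC/ΔC*. The TPM ranges of the compared genotypes did not overlap for *Frzb*, *Wif1* and *Dkk3* in each mutant against wild type and for *Dkk3* between the mutants. Over all tested genes such a separation was found for 20.3% in *Gpr124-/-* against wild type, 8.85% in *Gpr124ΔC/ΔC* against wild type and 11.5% between the mutants. The median log2 fold change of the 6 members was −1.43, −0.82 and −0.52 in these comparisons, while that of all tested genes was −0.01, 0.01 and −0.02. Since the members were chosen with earlier results of these data known, these counts and medians describe the list and do not test it. Both comparisons with wild type rest on the same 4 wild-type libraries, so their values are given side by side and are not independent.

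The summed level of the 8 genes was 52.2 TPM in wild type (46.5 to 60.8), 25.5 in *Gpr124ΔC/ΔC* (22.3 to 29.1) and 26.4 in *Gpr124-/-* (20.8 to 32.0). The sum in every mutant library was below that in every wild-type library, and the mutants overlapped. Its make-up also differed. *Frzb* made up 33.3% of the sum on average in wild type, 4.42% in *Gpr124ΔC/ΔC* and 2.11% in *Gpr124-/-*. *Dkk3* went from 29.4% to 17.4% and 11.1%. *Dkk2* went from 25.1% in wild type, where it stood behind *Frzb* and *Dkk3*, to 54.9% in *Gpr124ΔC/ΔC* and 70.2% in *Gpr124-/-*, at a level that did not pass the test for a change. These shares are of TPM and say nothing of protein.

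**Figure D3:**
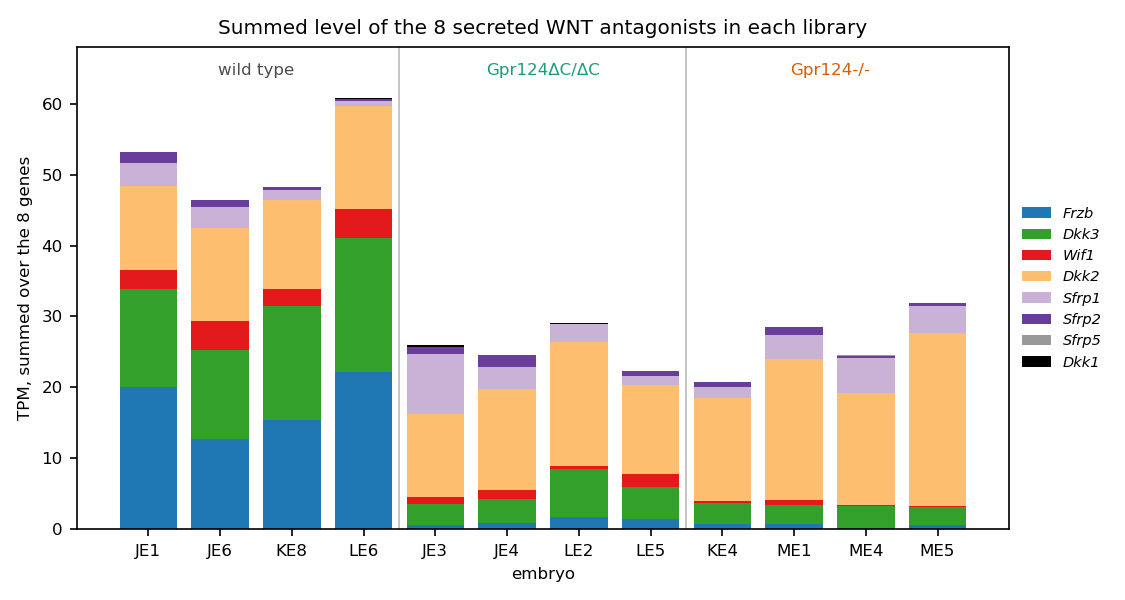
TPM summed over the 8 antagonists (vertical axis) in each embryo (horizontal axis), with a color for each gene. Wild-type bars reach 46.5 to 60.8 TPM and are built mostly of *Frzb*, *Dkk3* and *Dkk2*, while mutant bars reach 20.8 to 32.0 TPM with *Dkk2* as the largest part, from 44.9% in JE3, where *Sfrp1* makes up 32.3%, to 76.3% in ME5.

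Other inhibitors of the pathway moved in both directions. Of 11 further antagonists 7 were tested, with a median log2 fold change of −0.14 in *Gpr124-/-* against wild type. There edgeR and DESeq2 each called 2 lower and 2 higher, while limma on log2(TPM + 1) called 2 lower and 1 higher. *Notum*, an enzyme that removes the lipid of WNT ligands, fell from 14.9 to 24.3 TPM in wild type to 0.278 to 1.62 in *Gpr124ΔC/ΔC* and 0.953 to 1.79 in *Gpr124-/-*. Its log2 fold changes were −4.41 ± 0.41 (SE) (adjusted p = 6.44e-05, edgeR) and −3.88 ± 0.39 (SE) (adjusted p = 1.45e-05, edgeR) in that order. Between the mutants no difference in *Notum* was detectable (log2 fold change 0.53, adjusted p = 0.493, edgeR; 95% interval −0.41 to 1.48). *Apcdd1*, a membrane-bound inhibitor, was at 321 to 915 TPM in wild type, 114 to 354 in *Gpr124ΔC/ΔC* and 27.6 to 69.2 in *Gpr124-/-*. It fell in *Gpr124-/-* against wild type by 3.61 on the log2 scale (adjusted p = 0.000359, edgeR) and against *Gpr124ΔC/ΔC* by 1.89 (adjusted p = 0.0324, edgeR). The wild-type J embryos were at 885 and 915 TPM and the K and L embryos at 337 and 321, and no *Gpr124-/-* embryo has letter J. Within letter K the *Gpr124-/-* embryo was at 49.2 TPM against 337 in wild type.

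*Sost*, whose product sclerostin binds LRP5 and LRP6, went the other way. It was at 0 to 0.248 TPM in wild type, 0.216 to 1.5 in *Gpr124ΔC/ΔC* and 2.34 to 4.68 in *Gpr124-/-*, where its log2 fold change was 4.51 ± 0.70 (SE) (adjusted p = 0.000548, edgeR). It was also higher in *Gpr124-/-* than in *Gpr124ΔC/ΔC* (log2 fold change 1.99, adjusted p = 0.0489, edgeR). *Draxin*, an axon guidance protein that binds LRP6, rose from 1.03 to 1.80 TPM in wild type to 1.66 to 4.07 in *Gpr124-/-* (log2 fold change 1.28 ± 0.31 (SE), adjusted p = 0.0112, edgeR). The *Gpr124-/-* embryos of letter M, which holds no wild type, were at 4.07, 3.53 and 3.84 TPM. Within letter K the *Gpr124-/-* embryo was at 1.66 TPM, inside the wild-type range, and the wild-type embryo at 1.16. In *Gpr124ΔC/ΔC* against wild type, *Notum* was the only one of the 7 called by edgeR and by limma, with a list median of −0.11, while DESeq2 called 1 higher and 2 lower. Between the mutants edgeR called 1 higher and 1 lower, with a median of 0.53.

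The other parts of the pathway were described by counts. Of 19 WNT ligands 6 were tested, and *Wnt5a* was lower in *Gpr124-/-* (log2 fold change −3.32 ± 0.20 (SE), adjusted p = 3.44e-07, edgeR) and in *Gpr124ΔC/ΔC* (−2.48 ± 0.19 (SE), adjusted p = 2.14e-05, edgeR). The list medians were 0.06, −0.13 and −0.38 in *Gpr124-/-* and *Gpr124ΔC/ΔC* against wild type and between the mutants. In the last comparison edgeR called no ligand, with 1 higher and 1 lower at an unadjusted p under 0.05, while DESeq2 called 1 higher and limma none. The lower one, *Wnt5a*, passed the adjusted p but not the fold threshold (−0.84, adjusted p = 0.02, edgeR). Of 22 receptors and coreceptors 18 were tested. In *Gpr124-/-* edgeR and DESeq2 each called 2 higher and 2 lower, at a median of 0.23, while limma called 1 higher and 1 lower of the 15 it tested. The calls of edgeR were the R-spondin receptor *Lgr4* (3.07 on the log2 scale), the Frizzled receptor *Fzd10* (2.63), the WNT5A receptor *Ror1* (−1.76) and *Fzd6* (−1.26), the last of which is named after its value was seen. In *Gpr124ΔC/ΔC* edgeR called no receptor, at a median of −0.18, while DESeq2 called 1 lower and limma none. At an unadjusted p under 0.05 (edgeR) 2 were higher and 3 lower. Of these *Fzd4*, named after its value was seen, passed the adjusted p but not the fold threshold (0.58, adjusted p = 0.038, edgeR). Between the mutants *Ptk7* was higher in *Gpr124-/-* (1.07) by edgeR, at a list median of 0.13, while DESeq2 called 3 higher and limma 1.

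Of 11 feedback and target genes 10 were tested. In *Gpr124-/-* edgeR called 7 lower and none higher, with a median log2 fold change of −1.30, against 4.21% of all tested genes called lower. In *Gpr124ΔC/ΔC* it called 4 lower and none higher, with a median of −0.79, against 1.03% of all tested genes called lower. DESeq2 gave the same counts of calls, whereas limma on log2(TPM + 1) called 5 lower in *Gpr124-/-* and 2 in *Gpr124ΔC/ΔC*. The largest falls in *Gpr124-/-* were those of the feedback inhibitor *Nkd1* (−3.77), the transcription factor gene *Sp5* (−2.14) and the receptor gene *Tnfrsf19* (−2.14). In *Gpr124ΔC/ΔC* *Nkd1* was at −2.49, *Sp5* at −1.43 and *Nkd2* at −1.35, and *Axin2*, named after its value was seen, at −1.07. Between the mutants *Tnfrsf19* was lower in *Gpr124-/-* (−1.41) as the 1 call of edgeR, with a list median of −0.58, while DESeq2 called 2 lower and limma 1.

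**Figure D4:**
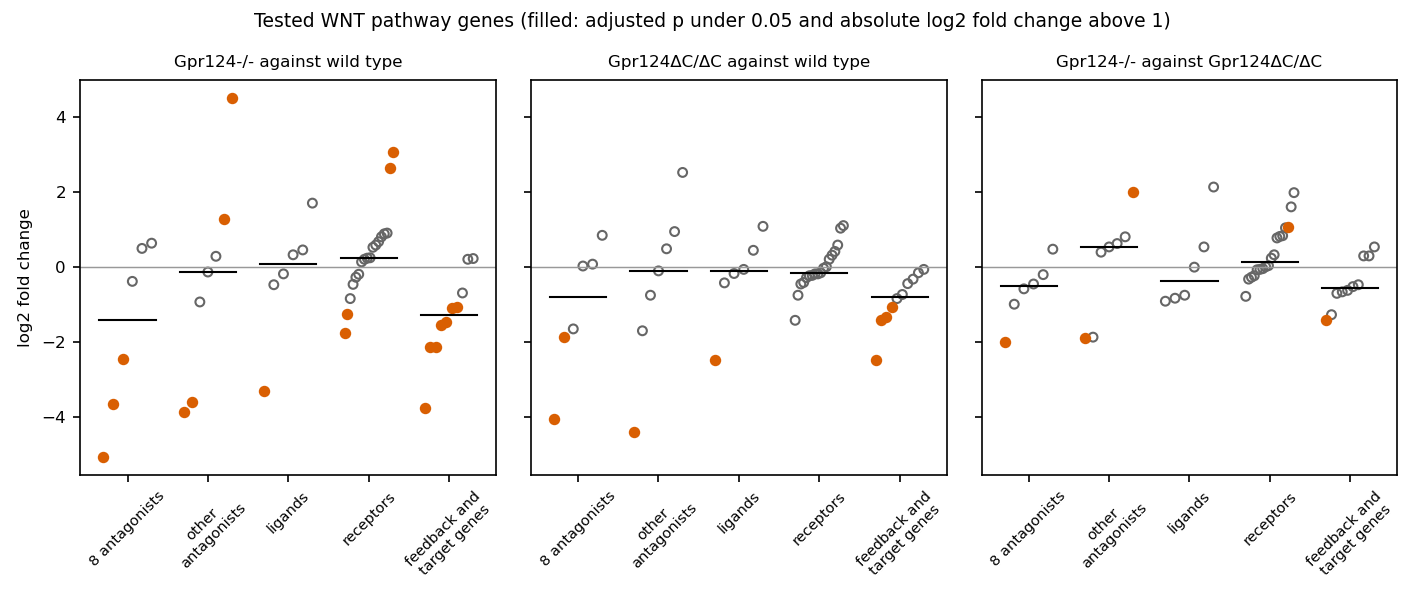
Log2 fold change (vertical axis) of every tested gene of 5 WNT pathway lists, in 3 comparisons; each point is a gene, black lines are list medians, and filled points passed both thresholds (adjusted p of 0.05, log2 fold change of 1 in either direction). Called genes among the 8 antagonists and the target genes all lie below 0, while called genes among the other antagonists and the receptors lie on both sides in *Gpr124-/-* against wild type.

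The genes most like each member were taken by Pearson correlation of log2 CPM over the 12 libraries, which differ in genotype, depth and composition. Closest to *Frzb* were *Slc25a20* (r = 0.98), a mitochondrial acylcarnitine carrier, *Dkk3* (r = 0.98) and *Ntpcr* (r = 0.98). Closest to *Dkk3* were *Lipa* (r = 0.98), the lysosomal acid lipase, *Frzb* and *Slc25a20*. For *Wif1* they were *Psors1c2*, the transcription factor gene *Foxp2* and *Lrp8os2* (each r = 0.96). For *Dkk2* they included *Bet1l* and *Adgrg1* (each r = 0.93). Closest to *Sfrp1* was *Gm15706* (r = 0.95), followed by *Mras* and *Zcchc24* (each r = 0.93).

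Within genotypes, after the genotype means were subtracted, other genes led. These were *Scgb3a1* (r = 0.93), *Mapk10* (r = 0.91) and *Harbi1* (r = 0.90) for *Frzb*, and *Gm11868*, *Gm5422* and *Fkbp14* (each r = 0.92) for *Dkk3*. For *Wif1* they were *Trim10* (r = 0.92), *Gm12328* (r = 0.87) and *Pbdc1* (r = 0.86), for *Dkk2* *Flot2* (r = 0.96), *Bysl* (r = 0.94) and *Thsd7a* (r = 0.93), and for *Sfrp1* *Tmeff1*, *Galnt1* and *Nr2c2* (each r = 0.98).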

How the data were processed

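Sorted endothelial cells of 12 E15.5 forebrains were profiled by poly(A)-selected RNA-seq from ultra-low input (SMART-Seq V4). The authors deposited raw read counts of 49315 genes per library, without normalization, and TPM values, which differed from those recomputed from counts and gene lengths by at most 0.00498%. The aligner, counting program and use of strand are not given in the sources used here. The submitters' processing notes name mm10 and bcl2fastq 2.17. Gene symbols were those of GENCODE vM21 and matched 49056 identifiers.

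Counts were fitted with edgeR 4.0.16 (R 4.3.3) in 1 quasi-likelihood model of genotype over all 12 libraries, with TMM factors (0.946 to 1.04) and filterByExpr (minimum count 10), which kept 16637 genes. The thresholds for a call, adjusted p below 0.05 and log2 fold change past 1 in either direction, follow the study. The model was tested on simulated data. Alternatives were upper-quartile factors, DESeq2 1.42.0, no filter, a mean of at least 50 counts, only the compared genotypes, the label letter as a term, no fold threshold, limma 3.58.1 on log2(TPM + 1), the same with a pseudocount of 0.1 (both for genes averaging 1 TPM or more), limma on the 30851 genes above 0 TPM in any library, and each library left out. Pearson correlations used members with a mean of at least 1 CPM and a prior count of 2.

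Named were the 8 members, *Adgra2*, called genes of the other antagonists, the 3 largest called changes per further list and comparison, and the 3 most similar genes per member by each correlation, of which 1 is not reported here. Outside this rule, *Fzd4*, *Fzd6*, *Axin2* and the marker genes were named after their values were seen. Members and lists were chosen with earlier results of these data known. No replicate was pooled.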

Additional observations from a re-analysis of the deposited data

Results flagged for a closer look

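*Dkk1* in the wild-type embryo LE6 was at 0.125 TPM, from 2 reads, while the other 3 wild-type libraries had none. By the gap to its nearest neighbour over the range of the 4 libraries it lay past Dixon's 95% critical value. With 3 libraries at 0, any single read would do so, and the value says nothing more than that reads were seen in 1 library.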

How the results depend on the processing

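Of 363 log2 fold changes of members recomputed under alternatives, 325 kept their direction and their side of the threshold. *Frzb* and *Dkk3* stayed called in both mutants against wild type under all 21 alternatives each, at −5.29 to −3.57 and −2.53 to −2.08 in *Gpr124-/-* and −4.29 to −3.14 and −2.12 to −1.62 in *Gpr124ΔC/ΔC*. *Wif1* ran from −4.43 to −1.74 in *Gpr124-/-* against wild type, where it was lost with the letter term, and from −2.77 to −0.69 between the mutants. *Frzb* between the mutants, not called, ran from −1.21 to −0.2. *Wif1* in *Gpr124ΔC/ΔC* passed with DESeq2 (adjusted p = 0.0101), the label letter in the fit (adjusted p = 0.0436, edgeR), limma on log2(TPM + 1) (adjusted p = 0.0446) and without ME1 (adjusted p = 0.0377, edgeR). Between the mutants the number of called members was 1, and it was 0 with no filter (*Wif1* at adjusted p = 0.0519, edgeR), a mean of at least 50 counts (*Wif1* not tested), the letter term, each of the 3 limma fits and only the compared genotypes (*Wif1* not tested), and 0 to 1 with single libraries left out.

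Direction turned for members that were never called. With the letter term, *Sfrp2* in *Gpr124-/-* was at 0.98 against wild type and 0.81 against *Gpr124ΔC/ΔC*, and *Dkk2* in *Gpr124ΔC/ΔC* at −0.03. For *Gpr124-/-* that fit rests on KE4 alone, since letter M holds no other genotype. *Sfrp1* between the mutants was at 0.01, 0.04 and 0.01 in the limma fits on log2(TPM + 1), on log2(TPM + 0.1) and without filter. With single libraries left out, *Sfrp2* ran from −0.86 to 0.22 in *Gpr124-/-* and from −0.41 to 0.68 in *Gpr124ΔC/ΔC* against wild type, and from −0.93 to 0.03 between the mutants. *Sfrp1* ran from −0.03 to 1.14 in *Gpr124ΔC/ΔC* and from −0.51 to 0.66 between the mutants, and *Dkk2* from −0.07 to 0.07 in *Gpr124ΔC/ΔC*. The cause was not tested. The labels give no replicate numbers that genotypes share, so embryos were not paired by number, and the label letter was used as a term instead. With 4 embryos per genotype and few reads for *Wif1*, *Sfrp2*, *Dkk1* and *Sfrp5*, small differences of these genes could not be detected.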
